A study of Mus musculus with 7 samples.

Results

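The 4 genes described here code for the receptor chains through which thymocytes read interleukin 2 (IL-2) and interleukin 7 (IL-7): Il2ra, Il2rb, Il2rg and Il7r. They were chosen by symbol from 32286 features, and their transcripts were counted in 71081 thymocyte barcodes from 7 single-cell RNA-seq libraries. A barcode stands for 1 droplet, and a thymocyte barcode is one that passed the quality filters and held at most 1 transcript of the B cell genes Cd79a, Cd79b and Ms4a1. Transcripts were counted as unique molecular identifiers (UMIs), and levels are given as CPM, the UMIs of a gene when all thymocyte barcodes of a library together are scaled to 1000000 UMIs.

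The libraries hold double-negative (DN) thymocytes, which carry neither CD4 nor CD8, sorted around the step at which αβ and γδ T cells part. The 5 wild-type (WT) libraries came from pooled thymi of C57BL/6 mice aged 6 to 8 weeks, after bead depletion of cells with CD4 or CD8. They are WT DN3a (before selection), WT DN3b γδ− and WT DN4 γδ− (the αβ branch), and WT DN3b γδ+ and WT DN4 γδ+ (the γδ branch). The other 2 libraries, Lat-KO DN3 γδ− and Lat-KO DN3 γδint, came from pooled thymi of C57BL/6 mice that lack the signalling adaptor LAT and carry the TCRd-H2BEGFP reporter allele, in which GFP is driven by the locus of the TCRδ chain. γδint stands for an intermediate surface level of the γδ TCR, and the reporter is in both Lat-KO libraries and in no WT library. No treatment was given, each library received 500 spiked-in splenic B cells, and each group is 1 library, so that no test between groups was possible and genotype, reporter and library cannot be told apart.

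Il7r codes for the IL-7 receptor α chain (CD127), which pairs with the common γ chain, the product of Il2rg, to bind IL-7. Il2rb codes for the β chain that the IL-2 and IL-15 receptors share, and Il2ra for the α chain CD25, which raises the affinity of the IL-2 receptor. The β and γ chains are bound to the kinases JAK1 and JAK3, which activate STAT5, and IL-7 is the main survival cytokine of early thymocytes. CD25 also defines the DN3 stage and was among the antigens stained for the sort (with CD3ε, CD4, CD8α, CD5, CD24, CD44, CD69, CD71, CD117, CD161 and TCRδ), so that differences of Il2ra between DN3 and DN4 libraries are in part set by the gate.

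Sequence before the start site is shown for the members with an entry in the RefSeq promoter table (GRCm38.p6), 3 of the 4, because Il2ra, Il2rg and Il7r differ in which of the searched motifs they hold. The windows are chr2:11642542-11642791 on the plus strand for Il2ra, chrX:101268256-101268505 on the minus strand for Il2rg, and for Il7r the stretch chr15:9530000-9530028 on the minus strand around its match. Each is written 5′ to 3′, with a STAT motif (TTCNNNGAA) or a RUNX motif (TGTGGT) in capitals.
Il2ra: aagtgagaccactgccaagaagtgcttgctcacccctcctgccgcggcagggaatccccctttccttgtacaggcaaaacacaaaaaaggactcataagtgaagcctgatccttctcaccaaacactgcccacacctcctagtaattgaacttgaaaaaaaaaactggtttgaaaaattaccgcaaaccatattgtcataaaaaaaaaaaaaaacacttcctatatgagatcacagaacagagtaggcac
Il2rg: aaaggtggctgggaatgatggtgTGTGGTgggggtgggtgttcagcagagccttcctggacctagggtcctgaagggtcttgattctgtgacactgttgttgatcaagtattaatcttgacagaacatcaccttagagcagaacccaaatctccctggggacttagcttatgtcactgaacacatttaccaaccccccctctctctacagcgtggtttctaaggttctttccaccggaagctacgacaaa
Il7r: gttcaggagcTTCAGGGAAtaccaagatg
For Il7r the start is that of RefSeq, at 9529876, which lies 41 bases upstream of the first coding transcript of GENCODE. A non-coding transcript of the gene starts further upstream, at 9530176, so that the stretch shown is in its intron. The 250 bases before the RefSeq start of Il7r held 1 STAT match, 142 bases from the start, and no RUNX match. Those before Il2rg held 1 RUNX match, 227 bases from the start, and no STAT match, and those before Il2ra held neither. Both strands were searched, and of 32851 promoter windows of this length 7.02% held the STAT letters and 14.0% the RUNX letters. Such a match is a description of the sequence and was not tied to the levels below.

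The genes lie in mm10 on chromosome 2 from 11642807 to 11693193, plus strand (Il2ra, ENSMUSG00000026770), chromosome 15 from 78479256 to 78495271, minus strand (Il2rb, ENSMUSG00000068227), chromosome X from 101264378 to 101268255, minus strand (Il2rg, ENSMUSG00000031304), and chromosome 15 from 9505788 to 9530176, minus strand (Il7r, ENSMUSG00000003882). All 4 are protein coding, and no other counted feature overlaps them. Levels of different genes were not compared, since the reads come from 3′ ends.

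Thymocyte barcodes per library ranged from 5274 to 18515 and their median depth from 5738 to 18506 UMIs. Shares of barcodes with a UMI were therefore read after thinning each barcode to 4000 UMIs, which left out 4.55 to 20.3% of a library. Lat itself was at 357 to 648 CPM in the WT libraries, 0.899 CPM in Lat-KO DN3 γδint and 4.83 CPM in Lat-KO DN3 γδ−. T cell markers summed to 2284 to 9695 CPM and B cell markers to 18.3 to 66.1 CPM. Natural killer (NK) markers summed to 11.8 CPM in WT DN4 γδ+ and to 0.404 to 1.04 CPM in the others. Myeloid markers were at 3.54 (WT DN3b γδ−) to 50.6 CPM (Lat-KO DN3 γδ−), and erythroid markers at 0.149 (WT DN3a) to 170 CPM (WT DN4 γδ−). Plasmacytoid markers were at 120 (WT DN4 γδ+) to 556 CPM (WT DN3a). The part of such cells in differences between libraries was not tested. B-like barcodes, those dominated by B cell transcripts (110 to 255 per library, 1062 in all), were used as the reference for free RNA. Ribosomal protein transcripts made up 18.2% of Lat-KO DN3 γδint and 27.7 to 33.7% of the others, and the B-like barcodes differed in the same way (19.9% against 29.8 to 36.1%). Of the barcode sequences, 925 occurred in more than 1 library. All intervals below are 95% intervals (exact Poisson for CPM, exact binomial for shares and for log2 ratios) and cover counting error only.

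**Figure D1:**
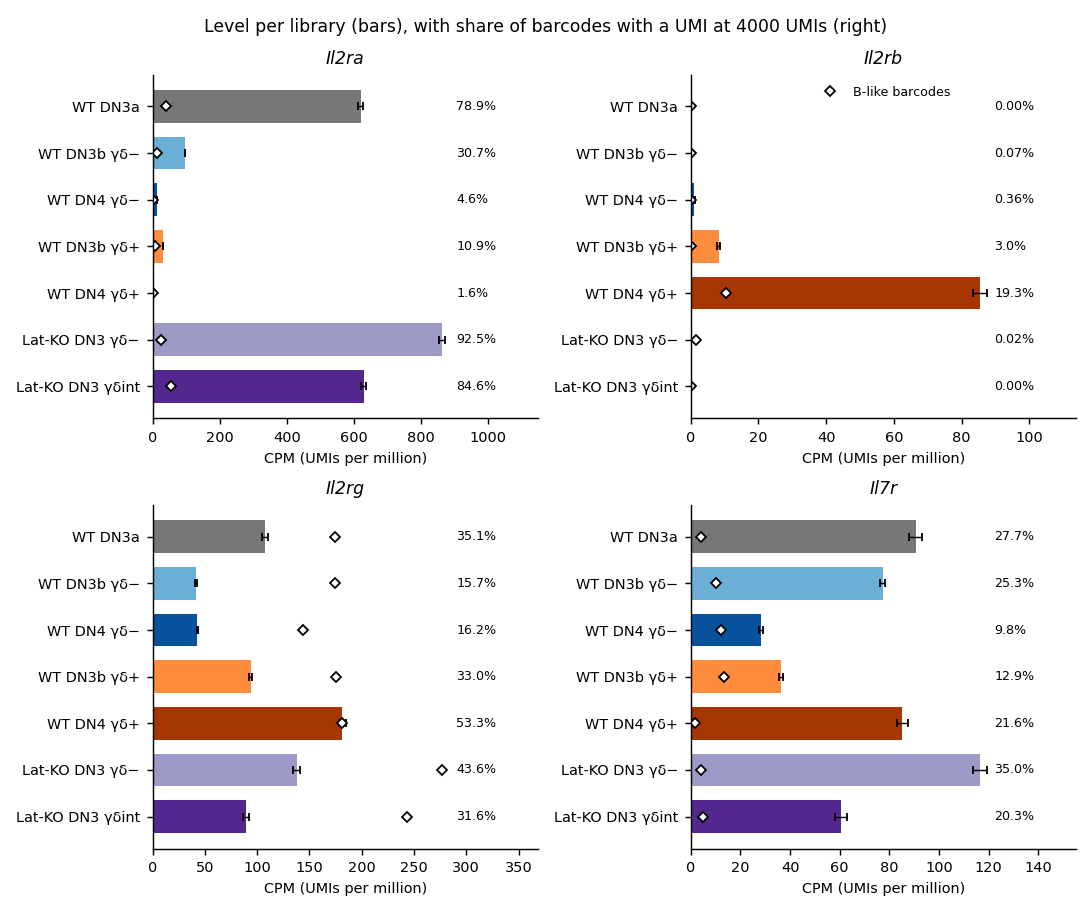
Level of each receptor chain gene in the 7 libraries. Bars give CPM in thymocyte barcodes with exact 95% Poisson intervals, open diamonds the CPM of the B-like barcodes of the same library, and the figures at the right of each panel the share of barcodes (percent) with a UMI at 4000 UMIs. Il2ra is highest in the DN3a and Lat-KO libraries (620 to 862 CPM), Il2rb stands out in WT DN4 γδ+ (85.4 CPM), and Il2rg and Il7r are detected in all 7 libraries.

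Il2ra was a gene of the cells before selection. Its level was 620 CPM (613 to 627) in WT DN3a, 97.1 CPM in WT DN3b γδ−, 12.1 CPM in WT DN4 γδ−, 30.5 CPM in WT DN3b γδ+, 4.25 CPM in WT DN4 γδ+, 629 CPM (621 to 637) in Lat-KO DN3 γδint and 862 CPM in Lat-KO DN3 γδ−. The order ran from Lat-KO DN3 γδ− down to WT DN4 γδ+, and among neighbours in it only Lat-KO DN3 γδint and WT DN3a did not differ beyond counting error (log2 ratio 0.02, interval -0.00 to 0.04). Orders here and below are of CPM, and close neighbours can stand otherwise under another scaling of the libraries. At equal depth a UMI of Il2ra was found in 78.9% of WT DN3a, 84.6% of Lat-KO DN3 γδint and 92.5% of Lat-KO DN3 γδ− barcodes. Of the selected cells, 30.7% of WT DN3b γδ− and 4.59% of WT DN4 γδ− barcodes held one, as did 10.9% of WT DN3b γδ+ and 1.60% of WT DN4 γδ+ barcodes. At this depth none of 25 (WT DN4 γδ−) and none of 57 (WT DN4 γδ+) B-like barcodes held Il2ra. This leaves shares of up to 13.7% and 6.27% possible by the exact binomial interval, too wide to decide on the DN4 shares. Without thinning, WT DN4 γδ− had Il2ra in 14.6% of thymocyte and none of 110 B-like barcodes (upper limit 3.30%). In WT DN4 γδ+ these were 2.65% and none of 139 (upper limit 2.62%). Thymocytes were deeper than B-like barcodes (median 18506 against 3332 and 6418 against 3711 UMIs). The part of free RNA was not tested. By level, WT DN4 γδ− lay above the upper limit of its B-like barcodes (9.01 CPM) and WT DN4 γδ+ below its own (6.31 CPM). B-like levels of Il2ra were 0 to 54.8 CPM, highest in Lat-KO DN3 γδint and WT DN3a (39.9 CPM).

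Il7r was detected in every library and moved within a narrower range. It was at 90.5 CPM (88.0 to 93.1) in WT DN3a, 77.3 CPM (76.3 to 78.2) in WT DN3b γδ−, 28.3 CPM (27.6 to 29) in WT DN4 γδ−, 36.5 CPM (35.6 to 37.3) in WT DN3b γδ+, 85.2 CPM (83.0 to 87.4) in WT DN4 γδ+, 60.4 CPM (57.9 to 62.9) in Lat-KO DN3 γδint and 117 CPM (114 to 120) in Lat-KO DN3 γδ−. In CPM Lat-KO DN3 γδ− was the highest and WT DN4 γδ− the lowest, and each library differed from its neighbour in the order by more than counting error. The order depends on the scaling. With TMM scaling, a library factor from a trimmed mean of gene-wise log ratios, WT DN3b γδ− over WT DN3a went from -0.23 to 0.13. Lat-KO DN3 γδint over WT DN3b γδ+, neighbours in the order, went from 0.73 to -0.02. The share of barcodes with a UMI ran from 9.78% in WT DN4 γδ− and 12.9% in WT DN3b γδ+ through 21.6% in WT DN4 γδ+ to 35% in Lat-KO DN3 γδ−. B-like barcodes, the reference for free RNA, were at 1.71 to 13.5 CPM. The 13.5 CPM, of WT DN3b γδ+, rests on 6 UMIs in 2 of 111 barcodes. No doublet caller was run, so that free RNA and doublets cannot be told apart in these levels. Their upper limit in WT DN4 γδ− was 28.5 CPM, about the level of the thymocytes there. The thymocyte barcodes of this library were deeper (median 18506 against 3332 UMIs), so that levels in CPM do not compare free RNA per droplet. Without thinning, a UMI of Il7r was in 30.3% of its thymocyte and 2.73% (0.566 to 7.76) of its B-like barcodes. The part of free RNA was not tested.

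Il2rb was close to absent before selection and in the αβ branch. It had 1 UMI in WT DN3a, 68 UMIs in WT DN3b γδ−, 245 UMIs in WT DN4 γδ−, 1617 UMIs in WT DN3b γδ+, 5966 UMIs in WT DN4 γδ+, 0 UMIs in Lat-KO DN3 γδint and 4 UMIs in Lat-KO DN3 γδ−. As CPM these are 0.0186, 0.201, 1.01, 8.26, 85.4, 0 and 0.0795. The γδ branch thus held the 2 highest libraries, and the share of barcodes with a UMI was 2.96% in WT DN3b γδ+ and 19.3% (18.4 to 20.3) in WT DN4 γδ+. The 3 lowest libraries (Lat-KO DN3 γδ−, WT DN3a and Lat-KO DN3 γδint) could not be told apart, nor could Lat-KO DN3 γδ− and WT DN3b γδ−. In Lat-KO DN3 γδint none of 5274 barcodes held Il2rb, which allows a share of barcodes with a UMI of up to 0.0569% by a floor of 3 counts. B-like barcodes had 6 UMIs in WT DN4 γδ+ (10.3 CPM), 1 UMI in Lat-KO DN3 γδ− and none elsewhere. Their upper limit of 8.29 CPM in WT DN3b γδ+ is as high as the level of the thymocytes there, which were deeper (median 15392 against 3839 UMIs). Without thinning, Il2rb was in 10.5% of thymocyte and none of 111 B-like barcodes of that library (upper limit 3.27%).

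Il2rg, the chain that both receptors need, was detected everywhere. It was at 108 CPM (105 to 111) in WT DN3a, 41.3 CPM (40.7 to 42.0) in WT DN3b γδ−, 43.0 CPM (42.2 to 43.8) in WT DN4 γδ−, 94.0 CPM (92.7 to 95.4) in WT DN3b γδ+, 181 CPM (178 to 185) in WT DN4 γδ+, 89.3 CPM (86.3 to 92.4) in Lat-KO DN3 γδint and 138 CPM (135 to 141) in Lat-KO DN3 γδ−. The αβ branch was lowest and WT DN4 γδ+ highest, with a UMI in 15.7% and 16.2% of the αβ branch barcodes and in 53.3% of WT DN4 γδ+ barcodes. Neighbours in the order differed beyond counting error, the closest being WT DN4 γδ− and WT DN3b γδ− (log2 ratio 0.06, interval 0.02 to 0.09). With TMM scaling WT DN3b γδ+ over WT DN3a, also neighbours, went from -0.20 to 0.13, so that their order depends on the scaling. B cells use the γ chain themselves, and the spiked-in B-like barcodes were at 144 to 181 CPM in the WT libraries and at 277 CPM (239 to 319) and 243 CPM (198 to 295) in the 2 Lat-KO libraries. The B-like cells of the Lat-KO libraries thus read higher for Il2rg than those of the WT libraries, and the part of this in differences between genotypes was not tested.

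In the αβ branch, 3 of the 4 chains were past 2-fold between WT DN3b γδ− and WT DN3a. Of the 3 chains with at least 20 CPM in 1 of these libraries 2 were past it, beside 26.1% of the 5968 genes at that level. Il2ra was lower by a log2 ratio of -2.68 (-2.70 to -2.65) and Il2rg by -1.38 (-1.43 to -1.34), while Il7r was at -0.23 (-0.27 to -0.18) and at 0.13 with TMM scaling. Il2rb, with 68 UMIs against 1 UMI, was at 3.43 with an interval of 0.90 to 8.76. From WT DN3b γδ− to WT DN4 γδ−, where 1.18% of 5148 genes were past 2-fold, Il2ra was lower again (-3.01, interval -3.06 to -2.95) and so was Il7r (-1.45, interval -1.49 to -1.41). These were 2 of the 3 chains at 20 CPM, and Il2rg, the other, was at 0.06. Il2ra is 1 of the 2, and its difference is in part set by the CD25 gate between DN3 and DN4. Il2rb was higher by 2.33 (1.93 to 2.74), at 1.01 CPM against 0.201 CPM, under the 20 CPM used for the share of all genes. Among barcodes not cycling it was at 4.45 (2.82 to 6.78), from 48 UMIs against 3. Without thinning, the 245 UMIs of Il2rb in WT DN4 γδ− lay in 116 of 12942 barcodes (0.896%). The part of cells of other types in them was not tested.

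In the γδ branch Il2ra was lower in WT DN3b γδ+ than in WT DN3a by a log2 ratio of -4.34 (-4.38 to -4.30). Il7r was lower by -1.31 (-1.36 to -1.26) and Il2rg was at -0.20 (-0.24 to -0.15). Thus 2 of the 3 chains at 20 CPM were past 2-fold, beside 24.9% of 5975 genes. Il2rb had 1617 UMIs against 1 UMI, a log2 ratio of 8.79 with an interval of 6.31 to 14.10. TMM scaling took Il7r to -0.99 and Il2rg to 0.13, and barcodes that were not cycling gave -0.50 for Il7r, 0.04 for Il2rg and -3.44 for Il2ra, with an interval for Il2rb that begins at 5.44.

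From WT DN3b γδ+ to WT DN4 γδ+ 3 chains were higher and 1 was lower. Il2rb was higher by a log2 ratio of 3.37 (3.29 to 3.45), Il7r by 1.22 (1.17 to 1.27) and Il2rg by 0.95 (0.92 to 0.98), while Il2ra was at -2.84 (-3.02 to -2.67). All 4 chains reached 20 CPM in 1 of these libraries, and 3 of them were past 2-fold, beside 17.8% of 5827 genes. Il2ra is 1 of the 3, and its difference is in part set by the CD25 gate between DN3 and DN4. Il7r fell short of 2-fold with TMM scaling (0.92) and among barcodes that were not cycling (0.54), where Il2ra was at -3.60. Il2rg passed it without the 8% of barcodes with the most UMIs (1.06), as a mean over single barcodes (1.03) and without ribosomal and mitochondrial genes in the total (1.01).

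Between the branches, all 4 chains were past 2-fold at both stages. The paper used CD71 to part WT DN3b γδ− from WT DN3a, and gives a CD71-positive phenotype for WT DN4 γδ− too. It describes the γδ+ cells by TCRδ, CD3, CD24 and CD44. The libraries of either stage may thus differ by gate as well as by branch. In WT DN3b γδ+ over WT DN3b γδ− the log2 ratios were -1.67 for Il2ra, 5.36 (5.01 to 5.73) for Il2rb, 1.19 (1.15 to 1.22) for Il2rg and -1.08 (-1.12 to -1.04) for Il7r. Each of the 3 chains at 20 CPM was past 2-fold, beside 6.93% of 5415 genes. For Il7r this held neither as a mean over single barcodes (-0.91) nor among barcodes that were not cycling (-0.29), where Il2ra was at -1.05 with an interval of -1.17 to -0.93 that takes in 2-fold. In WT DN4 γδ+ over WT DN4 γδ− they were -1.5 (-1.68 to -1.33) for Il2ra, 6.41 (6.22 to 6.60) for Il2rb, 2.08 (2.04 to 2.12) for Il2rg and 1.59 (1.54 to 1.64) for Il7r. The Il2ra ratio rests on 4.25 CPM in WT DN4 γδ+, below the upper limit of its B-like barcodes (6.31 CPM), and the part of free RNA in it was not tested. Again each of the 3 chains at 20 CPM was past 2-fold, beside 27.3% of 5845 genes. Il2rb was at 4.33 (3.91 to 4.77) among barcodes not cycling. Cycling barcodes were 76.3% of WT DN4 γδ− and 15.8% of WT DN4 γδ+, and the part of gate and cell cycle in these ratios was not tested. Il7r was thus lower in the γδ than in the αβ branch at DN3b and higher at DN4.

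**Figure D2:**
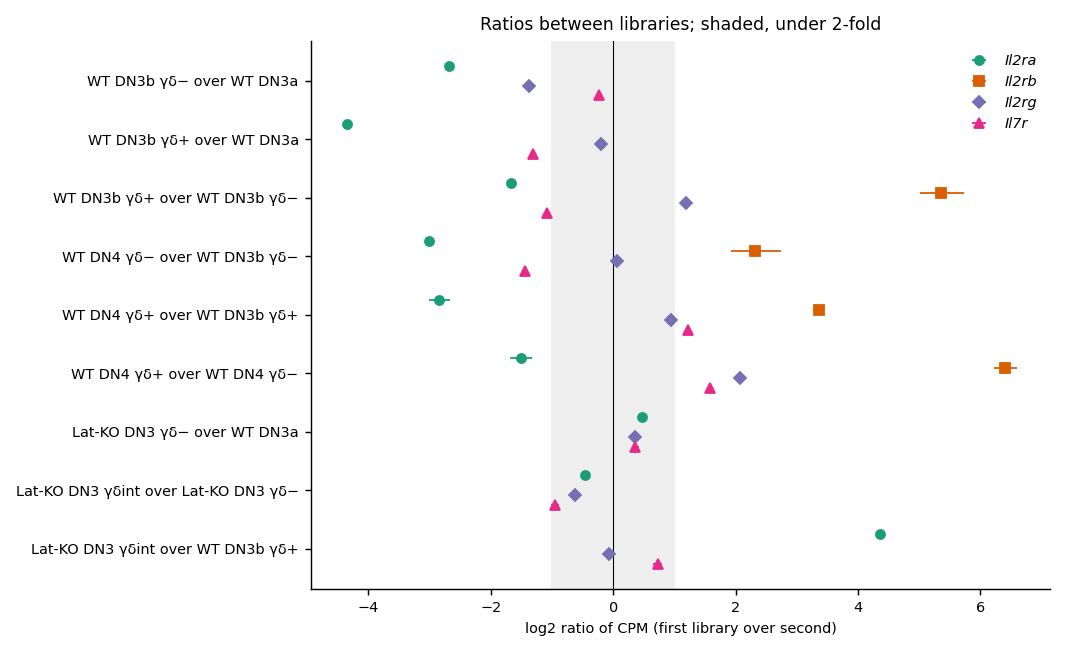
Log2 ratios of the 4 receptor chain genes in the 9 comparisons, with exact 95% intervals that cover counting error only. The shaded band is a change under 2-fold, and ratios with 3 or fewer UMIs in a library are left out. From WT DN3b γδ+ to WT DN4 γδ+ Il2rb lies at 3.37 and Il7r at 1.22, while Il7r lies at -1.45 from WT DN3b γδ− to WT DN4 γδ−.

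The Lat-KO libraries asked what the chains do in DN3 cells without LAT, including those with a γδ TCR at the surface. Lat-KO DN3 γδ− was close to WT DN3a, with log2 ratios of 0.48 (0.45 to 0.50) for Il2ra, 0.36 (0.31 to 0.41) for Il2rg and 0.36 (0.31 to 0.42) for Il7r. None of the 3 chains at 20 CPM was past 2-fold, beside 2.84% of 6100 genes, and the median of all genes was 0.22. Il2rb had 4 UMIs against 1 UMI, a log2 ratio of 2.10 whose interval of -1.24 to 7.72 spans 0. Lat-KO DN3 γδint lay below Lat-KO DN3 γδ− for Il2ra (-0.45, interval -0.48 to -0.43), Il2rg (-0.63, interval -0.69 to -0.57) and Il7r (-0.95, interval -1.02 to -0.88). None was past 2-fold, beside 8.59% of 6534 genes, though Il7r passed it with TMM scaling (-1.20), without ribosomal and mitochondrial genes in the total (-1.15) and with the B-like level subtracted (-1.01).

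Against WT DN3b γδ+, the WT cells at the DN3 stage with a γδ TCR, Lat-KO DN3 γδint was higher for Il2ra by a log2 ratio of 4.37 (4.32 to 4.41). Its Il2rb had 0 UMIs against 1617, at least 104-fold lower with the floor set at 3 UMIs per library. The exact interval of the log2 ratio, which allows more UMIs than that floor, ends at -6.40. In CPM the level in WT DN3b γδ+ was near the upper limit of its B-like barcodes, which were shallower. The part of free RNA was not tested. Il2rg was at -0.07 (-0.13 to -0.02), or 0.04 without the 8% of barcodes with the most UMIs, and Il7r at 0.73 (0.66 to 0.79). Of the 3 chains at 20 CPM 1 was past 2-fold, beside 32.2% of 6600 genes. TMM, which shifted this comparison by -0.74 as a whole, put Il7r at -0.02, and subtracting the B-like level put it at 1.27. Among barcodes not cycling Il7r was at 0.06 (-0.07 to 0.19), Il2ra at 3.64 and Il2rb had an interval that ends at -4.63, and these 2 libraries differed in their share of cycling barcodes (20.4% against 68.1%). The lower ribosomal share of Lat-KO DN3 γδint stands beside both of its comparisons, and its part in them was not tested.

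The partners of these chains were read from a list of 28 pathway genes, of which 10 to 14 reached 20 CPM in a given comparison. None of the 7 ligand genes (Il2, Il4, Il7, Il9, Il15, Il21 and Tslp) reached it in any comparison. Tslp, whose product signals through CD127 paired with CRLF2, was at 12.1 CPM in Lat-KO DN3 γδ− and 5.96 CPM in WT DN3a. Il4 was at 3.71 CPM in WT DN4 γδ+ and at 0.0868 CPM or less elsewhere, and Il7 itself at 0.271 CPM or less.

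In WT DN4 γδ+ over WT DN4 γδ− 7 of 12 pathway genes were past 2-fold higher and none lower, beside 18.4% of all genes higher, with a median of 1.23 beside 0.10 over all genes. Bcl2, the survival factor downstream of IL-7, was higher by 2.77 (2.72 to 2.81), at 180 CPM against 26.4 CPM. Foxo1, a transcription factor known to drive Il7r and Klf2, was higher by 3.26 (3.18 to 3.34). Crlf2 (2.17), Jak1 (1.87), Il21r (1.36), Mcl1 (1.25) and Pim1 (1.21) were the other 5. With TMM 5 of 12 were past it, without Mcl1 and Pim1, beside 12.5% of all genes higher and 17.8% lower. In WT DN4 γδ+ over WT DN3b γδ+ Foxo1 alone of 12 was past 2-fold (2.45, interval 2.38 to 2.52), beside 17.8% of all genes. From WT DN3b γδ− to WT DN4 γδ− it was Bcl2 alone of 10 (-1.61, interval -1.65 to -1.58), beside 1.18%.

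Against WT DN3a, 2 of 3 feedback and 4 of 4 target genes of STAT signalling were past 2-fold lower in WT DN3b γδ−, and 2 of 3 and 1 of 4 in WT DN3b γδ+. With TMM scaling none of the 4 target genes was past it in WT DN3b γδ−, and the other 3 counts stayed as they were. In WT DN3b γδ− over WT DN3a 6 of 12 pathway genes were past 2-fold lower and none higher, beside 14.6% of all genes lower (median -0.93 beside 0.01). With TMM only Socs1 and Socs3 of the 12 were past it, beside 8.38% of all genes lower and 22% higher. Socs3, which codes for a feedback inhibitor of cytokine receptors, was at 8.57 CPM against 62.0 CPM (-2.86, interval -2.93 to -2.78), and Socs1, Bcl2, Mcl1, Pim1 and Gfi1 were the other 5. In WT DN3b γδ+ over WT DN3a 4 of 12 were lower (Stat5a, Socs1, Socs3 and Gfi1) and 1 higher (Crlf2, 1.16), beside 13.4% of all genes lower and 11.5% higher. With TMM Stat5a was no longer past 2-fold, and 8.95% of all genes were lower and 20.5% higher. Bcl2 was at 0.65 (0.62 to 0.69) in that comparison, and between the DN3b libraries it was higher in γδ+ by 1.69 (1.67 to 1.71), with Crlf2 (1.56) and Il21r (1.07) also past 2-fold, 3 of 11 beside 5.13% of all genes. All 7 DN3 genes (Ptcra, Notch1, Notch3, Rag1, Rag2, Hes1 and Dtx1) were past 2-fold lower in both DN3b libraries than in WT DN3a, as was Il2ra. The paper names Notch3, Hes1, Ptcra, Rag1 and Il2ra itself among the top genes of WT DN3a in these same libraries, so that this count is no independent support. Of the 9 γδ selection genes (Cd5, Sox13, Maf, Cpa3, Etv5, Nr4a1, Egr1, Egr3 and Id3) 7 were measured in WT DN3b γδ+ over WT DN3a, and all 7 were past 2-fold higher. Cd5, Sox13, Cpa3 and Etv5 belong to the signature that the paper took from WT DN3b γδ+ against WT DN3b γδ− of these same libraries. Counts of this list are therefore no independent support.

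Partner genes also set Lat-KO DN3 γδint apart from the WT cells with a γδ TCR. Against WT DN3b γδ+ 6 of 13 pathway genes were higher and none lower, namely Stat5a (1.74), Stat5b (1.01), Socs1 (2.04), Socs2 (2.36), Socs3 (3.80) and Gfi1 (2.46), with a median of 0.61 beside 0.51 over all genes, of which 24.8% were higher and 7.41% lower. With TMM 5 were higher, without Stat5b, and Crlf2 and Bcl2 were lower, beside 7.94% of all genes higher and 18.4% lower. The 7 DN3 genes were all past 2-fold higher there, and 7 of 7 measured γδ selection genes lower. Both lists hold genes that the paper took from these same libraries, so that neither count is independent support. Within the Lat-KO pair only Cish, a STAT5 target that codes for a feedback inhibitor, was past 2-fold among 14 (-1.11, interval -1.26 to -0.96), a share near the 8.59% of all genes, and with TMM Pim1 was past it too. Against WT DN3a only Socs2 of 14 was past it in Lat-KO DN3 γδ− (2.05, interval 1.86 to 2.23), beside 2.84%.

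Cells that were cycling, called by at least 3 UMIs of 8 mitotic genes at 4000 UMIs, made up very different shares of the libraries. They were 78.4% of WT DN3b γδ−, 76.3% of WT DN4 γδ− and 68.1% of WT DN3b γδ+, but 15.8% of WT DN4 γδ+, 1.47% of WT DN3a, 4.26% of Lat-KO DN3 γδ− and 20.4% of Lat-KO DN3 γδint. The call was also met by 15 of 50 B-like barcodes in WT DN3b γδ+ and 8 of 25 in WT DN4 γδ−, against 0 to 2 in each of the others (1 of 30 in WT DN3b γδ−), and the part of free RNA and of doublets in it was not tested. Among WT DN3b γδ+ barcodes Il7r was at 31.2 CPM in cycling and 65.4 CPM in other barcodes, a log2 ratio of -1.07 (-1.20 to -0.93), and Il2ra at 27.7 and 59.4 CPM (-1.10, interval -1.24 to -0.96). Il7r of WT DN3b γδ− did not differ with the cell cycle beyond counting error (-0.01, interval -0.10 to 0.08). Il2rg was at 132 CPM in cycling and 213 CPM in other barcodes of WT DN4 γδ+ (-0.69, interval -0.81 to -0.56). Il2rb, by contrast, was near equal in the 2 classes of WT DN4 γδ+ (-0.08, interval -0.24 to 0.09), was higher in cycling barcodes of WT DN3b γδ+ (0.48, interval 0.13 to 0.84), and in WT DN4 γδ− was at 0.915 CPM in cycling and 4.29 CPM in other barcodes.

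**Figure D3:**
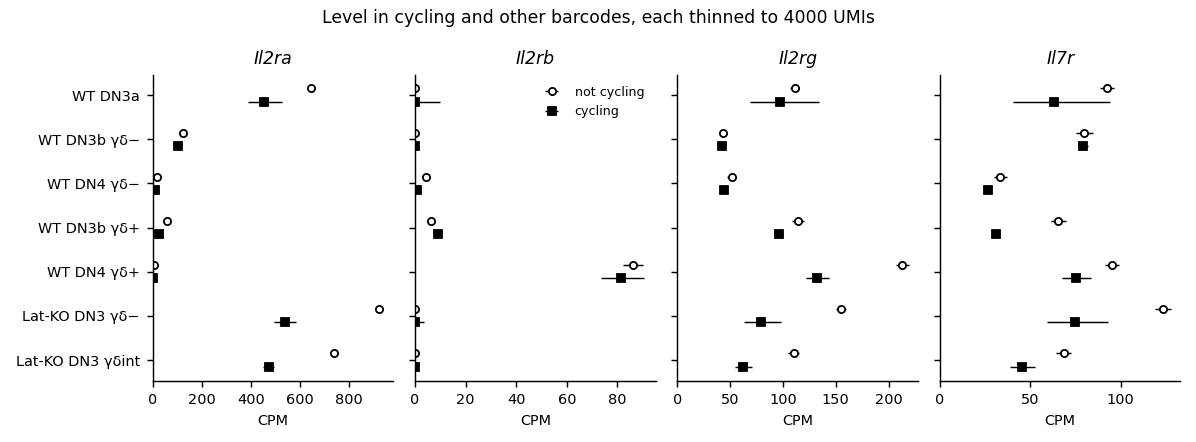
Level of each chain in cycling barcodes (squares) and in all other barcodes (circles) of the 7 libraries, in CPM at 4000 UMIs per barcode with exact 95% Poisson intervals. In WT DN3b γδ+ Il7r lies at 31.2 CPM in cycling and 65.4 CPM in other barcodes, and in WT DN4 γδ+ Il2rb lies at 81.6 and 86.0 CPM.

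WT DN4 γδ+ was the library in which Il2rb and Il7r were both frequent, so it was asked which barcodes held which chain. Of 6934 barcodes at 4000 UMIs, 33.1% held a UMI of Il2rg and of no other chain and 31.6% held none of the 4. Il2rg with Il7r was found in 8.28%, Il2rb with Il2rg in 7.23%, Il7r alone in 6.49% and Il2rb alone in 5.45%. All of Il2rb, Il2rg and Il7r were found in 270 barcodes without Il2ra (3.89%), and 5 barcodes held all 4. A missing UMI at this depth does not show that a cell lacks the chain.

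Il2rb and Il7r were found together in 448 barcodes, 6.46% (5.89 to 7.07), where the product of their separate shares is 4.16%, a ratio of 1.55. Il7r was in 33.5% (30.9 to 36.1) of barcodes with Il2rb and in 18.7% (17.7 to 19.8) of those without. The pairs with Il2rg were nearer to the product of their shares, with 11.3% for Il2rb and Il2rg (ratio 1.10) and 12.5% for Il2rg and Il7r (ratio 1.09). Il2ra was too rare for such a reading, with 20 barcodes shared with Il2rb, 31 with Il7r and 59 with Il2rg.

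Barcodes of WT DN4 γδ+ were then set in 4 classes by these UMIs, which are 891 with Il2rb only, 1047 with Il7r only, 448 with both and 4548 with neither. Maf, Sox13 and Blk, genes of the γδ17 fate (γδ T cells that make IL-17), were highest where neither chain was found. Maf was at 425 CPM (415 to 434) with neither, 298 CPM with Il7r only, 121 CPM with Il2rb only and 85.4 CPM with both. Sox13 was at 293, 145, 101 and 49.7 CPM in the same order, and the kinase gene Blk at 157, 95.5, 55.3 and 35.2 CPM. These 3 genes thus shared 1 order of the classes. Zbtb16 of the same list, which codes for PLZF, went another way, at 27.3 CPM (20.2 to 36.1) with both, 17.7 CPM with Il7r only, 9.54 CPM with Il2rb only and 3.24 CPM with neither. Ccr6 and Il23r of that list had at most 4 UMIs in any class.

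Genes of the γδ1 fate, γδ T cells that make interferon γ, and of natural killer (NK) type receptors were higher in barcodes with Il2rb than in those without, for all 8 genes of the list (log2 ratios of 0.69 to 3.74). The median log2 ratio was 0.00651 over the 2822 genes with 50 CPM or more in 1 class. The share of all genes that were higher is not given here. The paper describes Il2rb and Eomes as hallmarks of γδ1 cells and found both in the same cluster of these cells. The count is therefore no independent support. Eomes, which codes for a T-box factor, was at 61.2 CPM (53.3 to 69.8) with Il2rb only, 5.02 CPM (2.30 to 9.53) with both, 0.478 CPM with Il7r only and 5.83 CPM with neither. Klrd1, which codes for the receptor chain CD94, was at 54.2 CPM with Il2rb only and 70.3 CPM with both, against 10.7 CPM with Il7r only and 3.79 CPM with neither. The 2 genes thus parted in the barcodes with both chains, where Klrd1 was high and Eomes was not. The chemokine gene Xcl1 (87.3 CPM with Il2rb only, 95.4 CPM with both, 16.2 CPM with neither), Nkg7 (545, 571 and 306 CPM) and Ifng (21.3, 16.2 and 4.34 CPM) followed Klrd1. Ikzf2, which codes for Helios, was at 1282 CPM with both, 956 CPM with Il7r only, 905 CPM with Il2rb only and 568 CPM with neither, so that it was not higher with Il2rb only than with Il7r only. Tbx21 and Cxcr3 had at most 11 UMIs in any class.

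Markers of other cell types moved with Il2rb as well. The 4 NK markers summed to 66.5 CPM with Il2rb only, 23.4 CPM with both, 3.82 CPM with Il7r only and 3.52 CPM with neither, and 3 of the 4 had UMIs in each class. With Il2rb only most of this was Klre1 (58.6 CPM) and with both it was Tyrobp (19.0 CPM), while the defining marker Ncr1 was at 0 in all 4 classes and Klrb1c, the gene of the sorting antigen CD161, was at 0.11 to 1.12 CPM. The 5 myeloid markers summed to 68.5 CPM with Il2rb only, 158 CPM with both, 13.6 CPM with Il7r only and 6.49 CPM with neither, nearly all of it Fcer1g (66.2, 153, 12.4 and 4.45 CPM). The T cell list summed to 3778 to 3915 CPM, although Thy1, a member of it, was at 224 CPM with and 521 CPM without Il2rb (-1.21, interval -1.30 to -1.13). Trdc, the constant region of the TCRδ chain, was at 1772 to 2223 CPM over the classes. The B cell list was at 34.7 to 48.9 CPM, the plasmacytoid list at 110 to 161 CPM and the erythroid list at 0.605 to 1.12 CPM. The part of cells of other types in the classes was not tested.

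Genes of thymic exit and homing divided the classes too. S1pr1, which codes for the receptor that guides cells out of the thymus, was at 145 CPM (128 to 164) with both, 109 CPM with Il7r only, 91.5 CPM with Il2rb only and 61.7 CPM (58.1 to 65.4) with neither, and Klf2, the factor upstream of it, was at 579, 447, 435 and 322 CPM. Ccr9, a chemokine receptor of thymocytes and gut-homing cells, was highest with neither and lowest with both, at 372, 903, 504 and 1321 CPM in that order. Ccr7 stayed at 32.9 to 47.0 CPM.

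Of the STAT5 targets, Cish was at 23.4 CPM (16.9 to 31.7) with both, 17.7 CPM (13.6 to 22.6) with Il2rb only, 11.7 CPM (8.66 to 15.5) with Il7r only and 6.16 CPM (5.07 to 7.41) with neither. Bcl2 was at 258, 236, 213 and 160 CPM in that order, so both genes were lowest where neither chain was found. Pim2 shared this order (29.6, 27.8, 20.5 and 16.1 CPM), and the other 8 of the 11 feedback and target genes did not. With against without Il2rb, Pim1 (0.35, interval 0.23 to 0.47), Osm (0.87, interval 0.34 to 1.39) and Socs2 (7 and 8 UMIs) were higher, Socs1 (-0.40, interval -0.57 to -0.23) and Ptpn2 (-0.18, interval -0.34 to -0.03) were lower, and the intervals of Socs3, Mcl1 and Gfi1 spanned 0. With against without Il7r the intervals of all 8 spanned 0. Gzma, which codes for granzyme A, was at 3137 CPM with neither and 550 CPM with both, and Il4 was at 11.2 CPM (8.25 to 14.9) with Il7r only against 1.37 CPM (0.889 to 2.03) with neither.

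**Figure D4:**
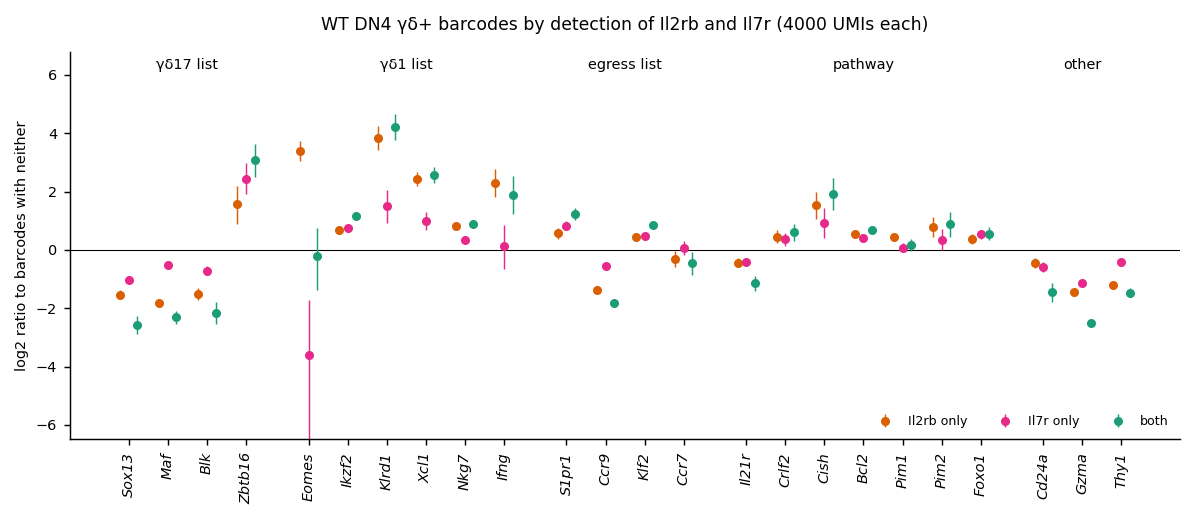
Log2 ratio of genes of the γδ17, γδ1, egress and pathway lists, and of Cd24a, Gzma and Thy1, in WT DN4 γδ+ barcodes with Il2rb only, Il7r only or both, each relative to the 4548 barcodes with neither, with 95% intervals. Ccr6, Il23r, Tbx21 and Cxcr3 are left out for their few UMIs, and the interval of Eomes with Il7r only runs past the lower end of the axis. Maf, Sox13 and Blk lie below 0 in all 3 classes, Eomes lies above 0 with Il2rb only, and Klrd1 lies above 0 in all 3 classes.

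Over 2822 genes with 50 CPM or more in 1 class, those with the highest log2 ratio between the 1339 barcodes with and the 5595 barcodes without Il2rb were Ccl5 (4.20, interval 4.08 to 4.32), Fcer1g (4.0), Klrd1 (3.55), C1ql3 (3.42) and Lgals3 (3.12). Ccl5 codes for a chemokine of effector lymphocytes and was at 537 CPM with and 29.2 CPM without Il2rb. Among the lowest were H2-Q2 (-1.94, interval -2.23 to -1.65), Nebl (-1.88), Maf (-1.88) and Dntt (-1.71), the last of which codes for the terminal transferase of immature lymphocytes. For Il7r, over 2761 genes, the ratios were smaller. The highest were Fcer1g (1.91, interval 1.68 to 2.14), Id2 (1.42), Tnfrsf9 (1.30), A430093F15Rik (1.28) and Ifi27l2a (1.24), and the lowest Gzma (-1.29, interval -1.32 to -1.25), Dntt (-1.18), Sox13 (-1.17), Tmem121 (-1.13) and Clec12a (-1.10).

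Il2ra and Il7r of WT DN3b γδ+ were found in the same barcodes more than the product of their shares gives, by a ratio of 1.92. Il7r was in 24.8% (22.3 to 27.3) of barcodes with Il2ra and in 11.5% (10.8 to 12.1) of those without. These shares were 14.2% (11.4 to 17.4) and 9.57% (9.03 to 10.1) in WT DN4 γδ−, and 21.2% (19.9 to 22.5) and 15.5% (12.9 to 18.3) in Lat-KO DN3 γδint, and in the other 4 libraries their intervals overlapped. In WT DN3b γδ+ the barcodes were read further by their number of Il2ra UMIs, which was 0 in 9668, 1 in 903, 2 in 178 and 3 or more in 102. A UMI of Il2ra was in 1 of 50 B-like barcodes of this library, which leaves a share of up to 10.6% possible beside the 10.9% of thymocyte barcodes. Without thinning the shares were 1.80% (0.219 to 6.36) of B-like and 25.1% of thymocyte barcodes, the latter being deeper. The part of free RNA in the barcodes with 1 UMI was not tested. Il7r was at 37.2 CPM (35.3 to 39.2), 73.6 CPM (65.1 to 83.0), 96.9 CPM (75.4 to 123) and 130 CPM (97.3 to 170) along these 4 steps. Il2rg stayed at 101 to 112 CPM, and Il2rb was at 8.48, 6.64, 2.81 and 0 CPM, the last 2 steps resting on 2 UMIs and none.

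The genes of DN3a cells were also higher along these steps. Ptcra, which codes for the pre-TCR α chain, was at 5.56, 19.7, 119 and 196 CPM, and Rag1, the recombinase gene, at 2.72, 10.8, 94.1 and 147 CPM. Notch1 (42.5, 70.9, 164 and 275 CPM) and its target Hes1 (40.6, 70.3, 136 and 311 CPM) did likewise, as did Cd24a, an antigen of immature thymocytes (228, 355, 403 and 576 CPM). All 7 DN3 genes were higher with than without a UMI of Il2ra (log2 ratios of 1.27 to 3.69). The median log2 ratio was -0.0229 over the 2725 genes with 50 CPM or more in 1 class. The shares of all genes that were higher or lower are not given here. Of the 9 γδ selection genes 6 were lower with Il2ra (Cd5, Sox13, Cpa3, Etv5, Egr1 and Id3), Maf was higher (0.30, interval 0.03 to 0.55), and the intervals of Nr4a1 (0.14) and Egr3 (0.18) spanned 0. Along the steps Id3 was at 363, 285, 205 and 132 CPM and Cd5 at 142, 127, 88.5 and 44.1 CPM. The cycling gene Mki67 was at 297, 217, 153 and 88.2 CPM. Trdc was at 1098, 1056, 829 and 716 CPM, so that barcodes with more Il2ra held fewer TCRδ transcripts, though they still held them. Of the lists of other cell types, the plasmacytoid markers summed to 128, 184, 315 and 407 CPM along the steps with Siglech at 0, nearly all of it Bst2 (0.83 with against without Il2ra, interval 0.73 to 0.93). The T cell list was at 3189, 3774, 4876 and 6652 CPM, the B cell list at 23.5 to 37.9 CPM, the myeloid list at 2.77 to 22.1 CPM, the NK list at 0.776 to 3.32 CPM with Ncr1 at 0, and the erythroid list at 2.43 to 5.62 CPM. Lyz2 (2.03), Tyrobp (2.08) and Hbb-bt (2.27) were higher with Il2ra on 13 or 14 UMIs each. The part of cells of other types in these steps was not tested.

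**Figure D5:**
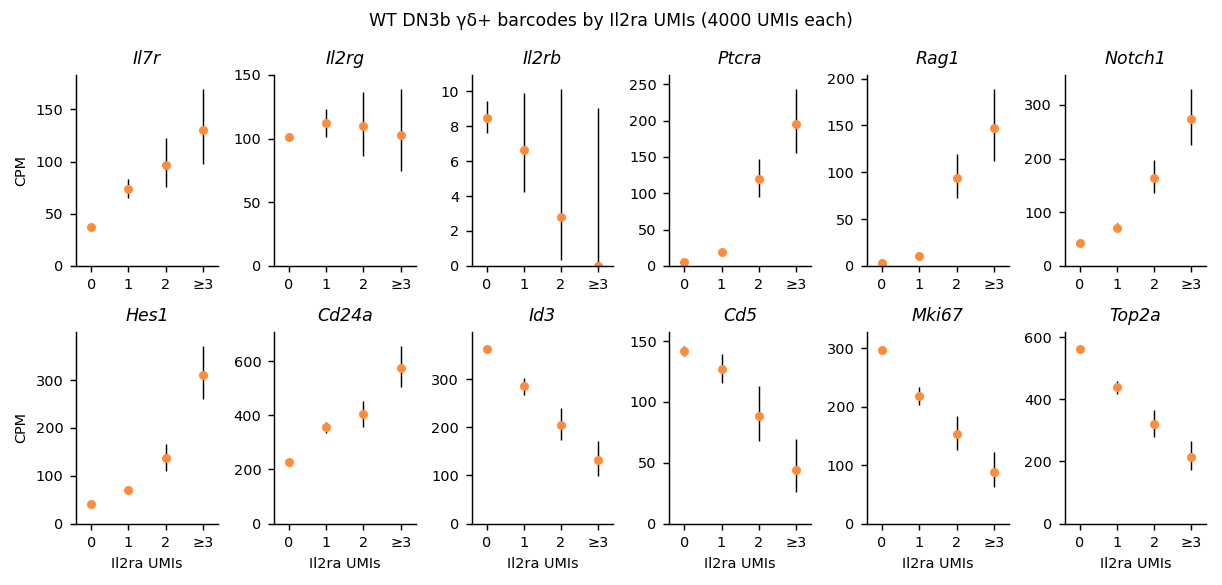
Level of 12 genes (CPM from 0, with 95% Poisson intervals, each gene on its own axis) in WT DN3b γδ+ barcodes with 0, 1, 2 or at least 3 UMIs of Il2ra at 4000 UMIs. Il7r goes from 37.2 to 130 CPM and Ptcra from 5.56 to 196 CPM, while Id3 goes from 363 to 132 CPM and Mki67 from 297 to 88.2 CPM.

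Among 2725 genes, those highest in WT DN3b γδ+ barcodes with Il2ra over those without were Gm4632 (2.77, interval 2.65 to 2.90), Dgkeos (2.08), Ly6d (1.79), the chemokine gene Ccl4 (1.57) and Aqp11 (1.35). The lowest were Tuba8 (-0.93, interval -1.15 to -0.71), Nrgn (-0.80), Sox13 (-0.79), Tacc3 (-0.77) and B630019A10Rik (-0.76).

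Across the 7 libraries the genes most like each chain were found by the root mean square (RMS) difference of log2(CPM + 1) profiles, each centred on its own mean, over 7029 genes. Il2ra was nearest to Khdc1a (0.55), Bst1 (0.74) and the cell cycle inhibitor gene Cdkn1a (0.79), none of them close. Il2rb was nearest to Gimap4 (0.32), Klf2 (0.36) and P2rx7 (0.47), of which Klf2 was at 5.63 to 13.1 CPM in the Lat-KO, DN3a and αβ branch libraries, 58.2 CPM in WT DN3b γδ+ and 330 CPM in WT DN4 γδ+. Il2rg was nearest to Ppp3ca (0.15), Tnfrsf1b (0.16) and Gadd45b (0.18), and Il7r to Zc3h6 (0.28), Rere (0.29) and Rab11fip2 (0.33). The 4 chains were less like each other, from 0.66 for Il2rg and Il7r to 4.74 for Il2ra and Il2rb.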

How the data were processed

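The authors deposited whole-number UMI counts per gene and barcode for 7 single-cell libraries (10x Chromium 3′ v3, 90016 barcodes, 1119448954 UMIs in all). The matrix headers name Cell Ranger 4.0.0 and the submitters' processing notes name Cell Ranger 5.0.1, R 3.6.3 and Seurat 3.1.5. Reads were aligned to mm10 with an added reporter feature, and no normalization was applied to the deposited counts.

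A barcode was kept if it had 200 or more genes and a mitochondrial share of 15% or less (79076 did), and those with at most 1 UMI of Cd79a, Cd79b and Ms4a1 were called thymocytes (71081). That rule removed 4.96 to 19.9% of a library, deeper barcodes more often. B-like barcodes had at least 10 UMIs of the 3 B cell genes and at least 5 times as many as of the Cd3 genes. No doublet caller was run. UMIs were summed per library and divided by the total (CPM), and shares, co-detection, classes and cycling calls were read after thinning to 4000 UMIs without replacement (seed 1). A gene was called past 2-fold at a log2 ratio of at least 1 either way, over genes with at least 20 CPM in 1 of the 2 libraries. With 1 library per group there is no test, and a library at 0 was set to 3 UMIs.

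The genes named are the 4 chains, the lists of pathway, DN3, γδ selection, γδ17, γδ1 and egress genes, the cell type markers, the 3 genes nearest in profile, and the 5 highest and 5 lowest genes of a class, of which 2 genes are not reported here. The NK list holds Ncr1, Klrb1c, Klre1 and Tyrobp, and the myeloid list Lyz2, Csf1r, Itgam, Cd68 and Fcer1g. Members, lists and the grading by Il2ra were chosen with earlier results of these data known. Genes with few UMIs and the graded Il2ra classes were picked out after their values were seen. Alternatives were the thymocyte rule, quality filter, scaling (TMM from edgeR 4.0.16 in R 4.3.3, or totals without ribosomal and mitochondrial genes), depth of thinning, doublets, free RNA, shared barcodes, weighting and cell cycle. The statistics were tested on simulated data. Python 3.11.15, numpy 2.4.6, scipy 1.17.1 and pandas 2.3.3 were used.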

Additional observations from a re-analysis of the deposited data

Results flagged for a closer look

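Il7r went opposite ways from DN3b to DN4 in the 2 branches. The log2 ratio of the DN4 to the DN3b library was 1.22 in the γδ branch and -1.45 in the αβ branch, with 1 library in each group, so that the difference was not tested. Among barcodes that were not cycling the values were 0.54 and -1.26. The share of cycling barcodes was 68.1% in WT DN3b γδ+ and 15.8% in WT DN4 γδ+, against 78.4% and 76.3% in the αβ branch, and the part of the cell cycle in the difference was not tested.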

How the results depend on the processing

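No paired analysis was possible because each group is 1 library and no result comes from a test. TMM shifted whole comparisons by -0.74 (Lat-KO DN3 γδint over WT DN3b γδ+) to 0.36 (WT DN3b γδ− over WT DN3a). Il2ra in WT DN3b γδ+ over WT DN3a (-4.34) was -4.02 with TMM, -4.52 without ribosomal and mitochondrial genes, -4.61 with the B-like level subtracted, -4.12 as a mean over single barcodes and -3.44 among barcodes not cycling. In WT DN4 γδ+ over WT DN3b γδ+, Il2rb (3.37) was 3.07 with TMM, 3.45 without the 8% of barcodes with the most UMIs, 3.19 with the B-like level subtracted and 3.74 among barcodes not cycling. Il2rg (0.95) was 0.64 with TMM, 1.01 without ribosomal and mitochondrial genes, 1.06 without the 8%, 1.03 as a mean over barcodes and 0.90 not cycling. Il7r (1.22) was 0.92, 1.29, 1.34, 1.05 and 0.54 under the same 5 settings and 1.86 with the B-like level subtracted. In WT DN3b γδ− over WT DN3a, Il2ra (-2.68) was -2.70 with no quality filter, -2.31 with TMM, -2.76 without ribosomal and mitochondrial genes, -2.71 without the 8%, -2.81 with the B-like level subtracted, -2.57 as a mean over barcodes and -2.39 not cycling, and Il7r (-0.23) was 0.13 with TMM. In the αβ branch from DN3b to DN4, Il2rb (2.33) was 3.06 as a mean over barcodes and 4.45 not cycling, Il2rg (0.06) was 0.11 with no quality filter and 0.24 not cycling, and Il7r (-1.45) was -1.40 with no quality filter, -2.06 with the B-like level subtracted, -1.54 as a mean over barcodes and -1.26 not cycling. The B-like level of Il7r that was subtracted rests on 6 UMIs in 2 of 111 barcodes of WT DN3b γδ+. In WT DN4 γδ− it rests on 5 UMIs in 3 of 110. These barcodes were shallower than the thymocytes (median 3839 against 15392 and 3332 against 18506 UMIs). A level in CPM is thus not the same amount of free RNA per droplet, and the subtraction may take off too much. The cause of these moves was not tested.

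The number of the 4 chains past 2-fold in Lat-KO DN3 γδ− over WT DN3a went from 1 to 0 with no B cell UMI allowed, with the B-like level subtracted and among barcodes not cycling, since that chain was Il2rb with 4 UMIs. Between the 2 Lat-KO libraries it went from 0 to 1, by Il2rb with no quality filter (-1.67) and by Il7r with TMM, totals without ribosomal and mitochondrial genes, and the B-like level subtracted. In Lat-KO DN3 γδint over WT DN3b γδ+ it went from 2 to 1 as a mean over barcodes, since Il2rb with 0 UMIs has no ratio under that setting. Co-detection of Il2rb and Il7r in WT DN4 γδ+ (6.46%) was 2.71% at 2000 UMIs and 12.3% without thinning, at a ratio of 1.67 to the product of the shares in both, and the ratio was 1.54 to 1.61 under the others. The share of all genes past 2-fold, with at least 10 UMIs over both libraries in place of 20 CPM, was 37.3, 38.7, 19.8, 13.9, 30.5, 38.8, 12.1, 12.3 and 43.4% for WT DN3b γδ− and WT DN3b γδ+ over WT DN3a, WT DN3b γδ+ over WT DN3b γδ−, WT DN4 γδ− over WT DN3b γδ−, WT DN4 γδ+ over WT DN3b γδ+, WT DN4 γδ+ over WT DN4 γδ−, Lat-KO DN3 γδ− over WT DN3a, the 2 Lat-KO libraries, and Lat-KO DN3 γδint over WT DN3b γδ+. The rule of fewer than 10 B cell UMIs, the co-detection among barcodes not cycling and the TMM counts of pathway genes were added after seeing the data.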
